A study of Mus musculus with 46 samples.

Results

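The 42 genes described here encode the machinery that copies DNA and the enzymes that supply its building blocks. They were taken by name from a fixed list, out of 25147 genes in the deposited count table. That list was chosen with earlier results of these data known. Its genes were followed over 0, 1, 4 and 8 h after human chorionic gonadotropin (hCG), the luteinizing hormone substitute that triggers ovulation. By role, they are genes of origin licensing (10 genes), helicase activation (6), primase and polymerases (7), the sliding clamp with its loader and the processing of Okazaki fragments (8), single-strand binding (3), nucleotide supply (5) and chromatin behind the fork (3). Of the 42 genes, 30 had counts high enough to be tested and 12 did not.

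Each library was made from a single ovarian follicle of a CD-1 mouse. Every follicle had been grown for 8 days in alginate in medium with recombinant follicle-stimulating hormone (rFSH), and was then freed from the bead and moved to maturation medium with 1.5 IU/ml hCG, 10 ng/ml epidermal growth factor (EGF), 10 mIU/ml rFSH and 10% serum, so that all these agents changed together and no follicle was kept in the growth medium for the same hours. Follicles were frozen at 0 h (9 follicles, all of batch 2), 1 h (13 follicles, 10 of batch 1 and 3 of batch 2), 4 h (13 follicles, 10 and 3) and 8 h (11 follicles, all of batch 1), and in batch 1 the 4 h follicles lay on another plate than those of 1 h and 8 h. The labels tie no follicle to an animal and give no animal age, and the p-values therefore rest on the spread among follicles, some of which may share an animal.

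Chromosomes are licensed for replication in the G1 phase, when the origin recognition complex, CDC6 and CDT1 load the MCM helicase onto DNA. In S phase CDC45 and the GINS complex activate the helicase, DNA polymerase alpha lays down primers, polymerases delta and epsilon extend them on the PCNA clamp, and ribonucleotide reductase, thymidylate synthase and dUTPase keep the supply of deoxynucleotides balanced. In the growing follicle the dividing cells are mainly granulosa cells, which leave the cell cycle after the ovulatory surge, while the oocyte resumes meiosis without replicating its DNA. Many of these genes are known targets of E2F transcription factors, which bind motifs related to TTTGGCG near the start of transcription.

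To show that motif in its context, the promoters of 5 members that moved in different ways are given as RefSeq has them (GRCm38.p6), 250 bases before to 50 bases after the annotated start, with matches on either strand in capitals. The first motif searched was TTTGGCG, the second motif searched was TTTCGCG, and the third motif searched was TTTCCCG. Mcm6, Pola1 and Pola2 hold matches, while the promoters of Rrm1 and Rrm2, the subunits of ribonucleotide reductase, hold none of these letters in this window. The sequences lie at chr1:128359656-128359955 (minus strand) for Mcm6, chrX:93632106-93632405 (minus) for Pola1, chr19:5964157-5964456 (minus) for Pola2, chr7:102441445-102441744 (plus) for Rrm1 and chr12:24708004-24708303 (plus) for Rrm2.
Mcm6: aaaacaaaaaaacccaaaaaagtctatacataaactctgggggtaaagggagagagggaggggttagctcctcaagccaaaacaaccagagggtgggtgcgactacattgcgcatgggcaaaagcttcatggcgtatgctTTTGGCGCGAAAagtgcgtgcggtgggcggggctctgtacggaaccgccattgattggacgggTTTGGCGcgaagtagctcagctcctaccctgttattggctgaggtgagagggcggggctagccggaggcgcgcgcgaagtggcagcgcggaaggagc
Pola1: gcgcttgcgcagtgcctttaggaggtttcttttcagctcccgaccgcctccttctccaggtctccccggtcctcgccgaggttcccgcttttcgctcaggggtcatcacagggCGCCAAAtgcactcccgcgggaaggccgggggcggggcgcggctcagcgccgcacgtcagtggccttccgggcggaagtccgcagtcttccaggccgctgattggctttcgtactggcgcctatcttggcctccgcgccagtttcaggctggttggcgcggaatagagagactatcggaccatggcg
Pola2: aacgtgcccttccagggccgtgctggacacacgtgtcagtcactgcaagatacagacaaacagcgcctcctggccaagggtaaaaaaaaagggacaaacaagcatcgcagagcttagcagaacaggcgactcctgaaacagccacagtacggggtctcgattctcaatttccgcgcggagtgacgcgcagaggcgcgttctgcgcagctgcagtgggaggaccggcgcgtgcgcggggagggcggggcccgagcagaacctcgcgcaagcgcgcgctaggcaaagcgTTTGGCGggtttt
Rrm1: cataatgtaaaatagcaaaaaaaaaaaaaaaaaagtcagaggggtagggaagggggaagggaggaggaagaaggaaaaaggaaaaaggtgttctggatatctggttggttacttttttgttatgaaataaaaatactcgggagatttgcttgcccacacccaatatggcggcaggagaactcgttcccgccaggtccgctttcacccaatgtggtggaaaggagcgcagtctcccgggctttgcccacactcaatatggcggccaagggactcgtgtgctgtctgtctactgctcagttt
Rrm2: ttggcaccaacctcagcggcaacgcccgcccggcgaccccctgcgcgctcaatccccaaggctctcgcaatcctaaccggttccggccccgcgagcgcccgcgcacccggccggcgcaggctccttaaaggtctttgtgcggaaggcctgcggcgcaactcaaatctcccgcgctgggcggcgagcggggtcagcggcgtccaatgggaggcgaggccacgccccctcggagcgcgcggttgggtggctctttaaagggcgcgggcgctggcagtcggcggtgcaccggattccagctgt
The 3 matches in Mcm6 begin 110, 105 and 47 bases before the start, and the first of them shares its last letters with the second. The match in Pola1, read on the opposite strand, begins 137 bases before the start, and the match in Pola2 begins 37 bases after it. Over the 35 members found in the promoter table, 19 genes (54.3%) had at least 1 match. Counted over promoters, 46.3% of the 41 member promoters held a match, against 5.58% of all 32851 promoters of the table and 7.26% of the 18585 promoters of genes in the count table. Members called lower than 0 h at any time held a match in 12 of 20 genes, and those called higher in 2 of 3. A match describes letters in the reference and was not measured here as binding.

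Libraries held between 241442 and 5185044 counts, and the medians at 0, 1, 4 and 8 h were 3286107, 730895, 1432395 and 1755429, so the 0 h follicles were the most deeply sequenced. Levels are given below as CPM, counts scaled to 1000000 counts of the 8629 genes tested in each library, with trimmed-mean (TMM) factors. Counts of genes that were not tested do not enter that total. Fold changes are on the log2 scale ± SE from edgeR's quasi-likelihood test with a batch term, called at an adjusted p under 0.05 over all 8629 genes tested. In the batch 2 follicles after hCG, 3332 genes that batch 1 detected had no count at all, and these genes held 22.6% to 46.2% of the counts at 0 h but at most 0.0667% later. Of these genes, 20 were among the 8629 tested, and the others do not enter the total behind the CPM. Among the members, only Orc1 was one of the 3332 genes. Summed markers of granulosa cells, 7 of 8 of them tested, had medians of 38352, 31047, 27538 and 14481 CPM at 0, 1, 4 and 8 h (ranges 18185 to 54853, 16923 to 57190, 13239 to 52108 and 8937 to 18488). Smooth muscle markers, which include 5 genes, had medians of 142, 1214, 802 and 237 CPM, with ranges of 27.0 to 475, 482 to 2410, 122 to 1544 and 59.1 to 408. The 10 oocyte markers summed to medians of 18.0, 26.3, 15.8 and 27.7 CPM (highest follicle 166), the 7 markers of theca and stroma to 749, 1241, 246 and 233 CPM (ranges 286 to 2212, 223 to 3156, 50.2 to 2206 and 43.5 to 2815), the 5 of endothelium to 8.64, 30.2, 10.5 and 9.83 CPM, and the 5 of leukocytes to 20.2, 27.7, 8.22 and 8.92 CPM. Ptprc, which defines leukocytes, was at 0 in every 1 h follicle, and the anti-Müllerian hormone gene Amh was at 0 in every batch 2 follicle after hCG. These shifts in cell type markers moved with time, and their part in the changes below was not tested. A lower level in a whole follicle cannot be told apart as fewer dividing cells or as less RNA per cell.

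The median of the tested members was lower at each time after hCG than at 0 h, but the members did not move as a block. Most of them were called lower at 4 h only, not at 1 h or 8 h. At 1 h, 11 of the 30 tested members fell and 3 rose, beside 22.2% and 12.4% of all genes tested. At 4 h, 21 fell and 3 rose against 0 h (32.2% and 21.9% of all genes), and at 8 h 14 fell and 3 rose (27.6% and 17.5%). The median member changed by -0.50, -1.18 and -0.93 at 1, 4 and 8 h against 0 h, beside -0.19, -0.12 and -0.15 for all genes tested. Of the 30 members, 8 were called lower at all 3 times (Mcm7, Pold1, Pold2, Rfc3, Fen1, Lig1, Rpa2 and Rrm2). Another 5 were called lower at 4 h and 8 h only (Mcm3, Gins3, Rfc1, Rpa3 and Dut). A further 6 were called lower at 4 h only (Mcm2, Mcm4, Mcm5, Rfc5, Rpa1 and Uhrf1), while Pola1 and Rrm1 were called higher at all 3. These patterns are calls of the fit with all follicles, and a missed call is not a lack of change. Mcm5, for example, changed by -1.17 ± 0.44 at 4 h and by -1.09 ± 0.51 at 8 h (edgeR adjusted p = 0.0233 and 0.0735). Other settings were batch 2 alone, no "_ds" follicles (described below), a term for the 3 library sets (batch 2 and the 2 plates of batch 1), and limma. For the members described in full, the paragraphs on them give some but not all of the calls that end in these settings. A call given without such a value may therefore still end in one of them. Over the 4 times together, 28 of 30 members changed, where 79.8% of all genes did. The exceptions were Orc6, a small subunit of the origin recognition complex, and the clamp gene Pcna.

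The 41 members other than Orc1 summed to 798 CPM at 0 h in the median follicle (440 to 987), 586 CPM at 1 h (340 to 932), 468 CPM at 4 h (273 to 627) and 524 CPM at 8 h (386 to 635). The ranges of all 4 times overlapped. Counts against 0 h lean on few libraries and on how the batches are joined. Within batch 2 alone, where 36 members could be tested against 3 follicles at each later time, 5 fell and 3 rose at 1 h and 13 fell and 2 rose at 4 h. Every member called with both batches kept its sign, but the joint calls rest mainly on these same libraries, so this is no separate support. Of the members called with both batches, 6 of 14 at 1 h and 14 of 24 at 4 h stayed called. Without the 5 of 9 follicles at 0 h whose descriptions end in "_ds", a mark the labels do not explain, 4 fell and 3 rose at 1 h, 15 fell and 3 rose at 4 h, and 8 fell and 2 rose at 8 h, of 32 tested. With limma on log2(TPM + 1) in place of counts, the split was 7 lower and 6 higher at 1 h, 13 and 5 at 4 h, and 8 and 5 at 8 h. These TPM share their total with the 3332 genes that held 22.6% to 46.2% of the counts at 0 h. A fit on TPM rescaled without those genes is given at the end. The shares of all genes called in these other settings are not given, so the counts show only how the calls of members change. No batch holds both 0 h and 8 h, so that difference is a sum of differences within batches.

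**Figure D1:**
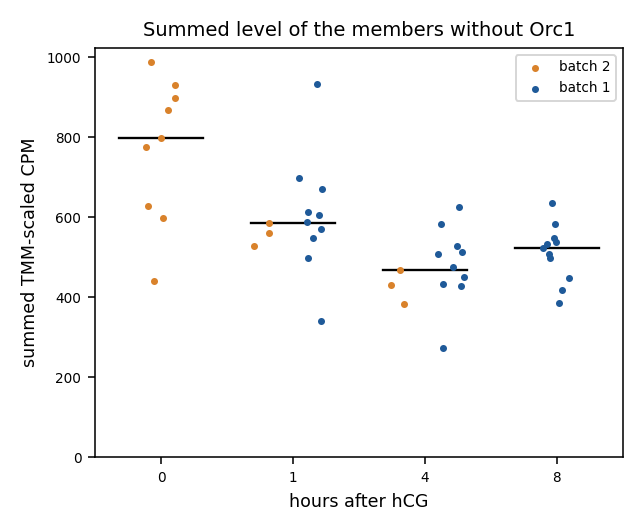
Summed TMM-scaled CPM of the 41 members other than Orc1 (y axis, linear from 0) in each follicle at 0, 1, 4 and 8 h after hCG (x axis), with points colored by batch and a bar at the median of all follicles of a time. The medians are 798, 586, 468 and 524 CPM, and the ranges of the 4 times overlap.

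**Figure D2:**
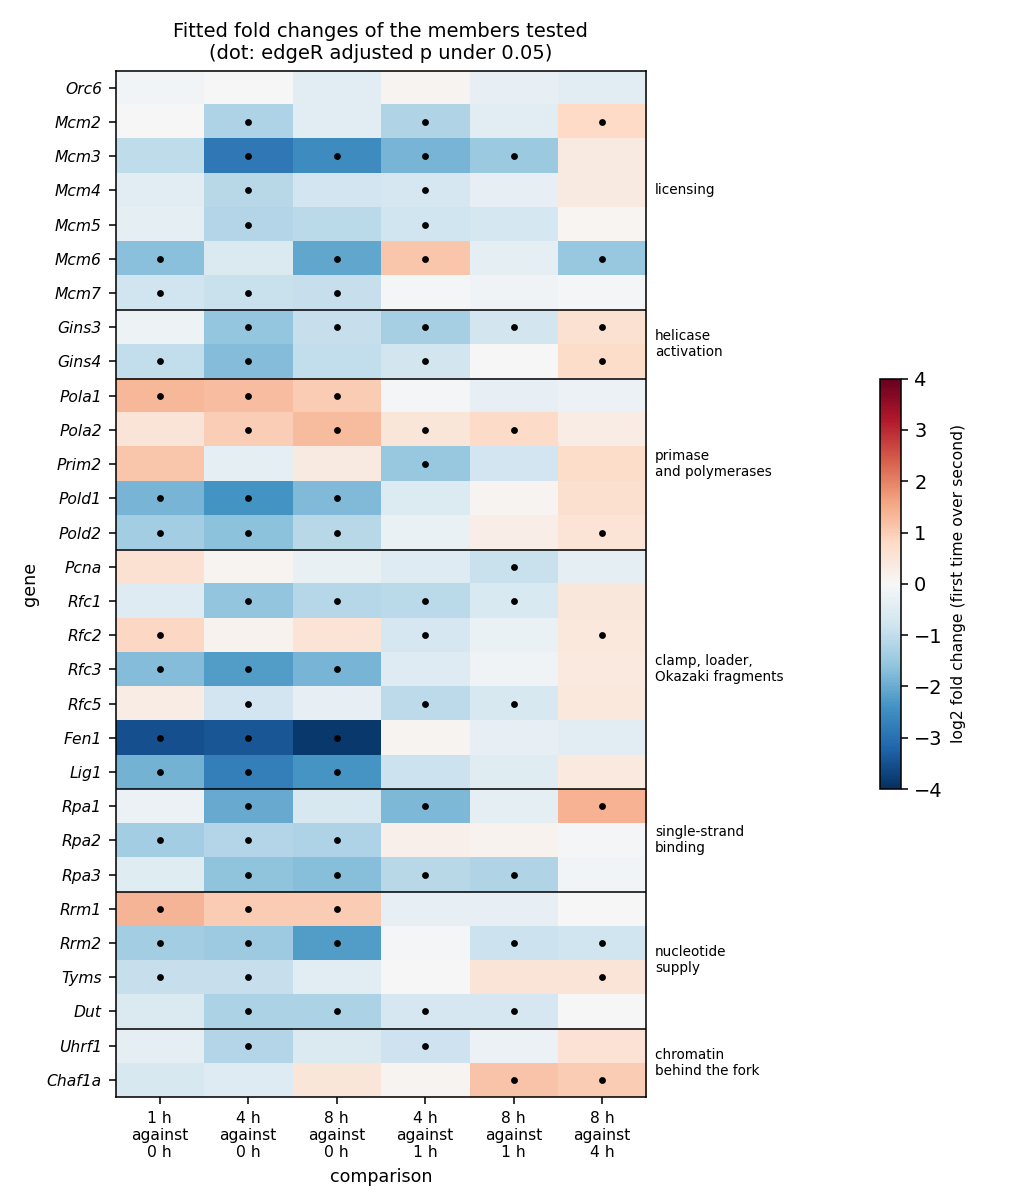
Fitted log2 fold changes (color, first time over second) of the 30 tested members (rows, grouped by role) in the 6 comparisons of times (columns), with a dot where the edgeR adjusted p was under 0.05. Most rows are blue in the first 3 columns, Pola1, Pola2, Rrm1 and, more weakly, Rfc2 are red there, and Mcm6 is red only for 4 h against 1 h.

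Among the licensing genes, the 6 subunits of the MCM helicase, the motor that unwinds DNA, followed different courses. All 6 fell against 0 h at some time, 5 of the 7 tested licensing genes at 4 h. Mcm3 had a median of 44.0 CPM at 0 h (12.8 to 59.4), 18.0 at 1 h (1.40 to 37.7), 5.14 at 4 h (0.638 to 11.2) and 7.11 at 8 h (2.41 to 11.1). Every follicle at 4 h and at 8 h lay below every follicle at 0 h, and the fall was 2.87 ± 0.44 at 4 h (adjusted p = 4.11e-07) and 2.50 ± 0.49 at 8 h (adjusted p = 4.71e-05). At 1 h its change of -1.01 ± 0.41 missed the threshold (adjusted p = 0.0518). The 3 batch 2 follicles at 4 h, between 0.638 and 7.01 CPM, were all below their 3 counterparts at 1 h, between 18.5 and 29.5 CPM.

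Mcm2 had a median of 24.2 CPM at 0 h (5.89 to 33.1), 21.5 at 1 h (13.3 to 36.6), 9.07 at 4 h (0 to 15.8) and 17.1 at 8 h (9.73 to 24.1). It was not called at 1 h (-0.02 ± 0.32, adjusted p = 0.969), fell by 1.23 ± 0.30 at 4 h against 0 h (adjusted p = 4.76e-04), and was higher by 0.79 ± 0.22 at 8 h than at 4 h (adjusted p = 0.00342), with overlapping ranges throughout. The fall of Mcm2 at 4 h was not called in batch 2 alone (-0.83, edgeR adjusted p = 0.133), without the "_ds" follicles (-0.69, adjusted p = 0.0932) or with limma on log2(TPM + 1) (-0.56, adjusted p = 0.145). With limma on TPM rescaled without the 3332 genes absent from batch 2 after hCG, the fall of Mcm2 at 4 h was called. The step of Mcm2 from 4 h to 8 h turned to -0.063 with the library set term. Mcm4 and Mcm5 also fell at 4 h, by 1.12 ± 0.32 and 1.17 ± 0.44 (in batch 2 alone -0.94 and -1.23, edgeR adjusted p = 0.0982 and 0.113). Mcm7 had a median of 50.3 CPM at 0 h (15.5 to 82.3), 28.5 at 1 h (13.4 to 43.2), 27.1 at 4 h (12.7 to 50.2) and 25.6 at 8 h (19.7 to 39.0). It fell by 0.80 ± 0.29 at 1 h, 0.88 ± 0.27 at 4 h and 0.94 ± 0.32 at 8 h (adjusted p = 0.0302, 0.00515 and 0.0150). None of these calls held without the "_ds" follicles, where the changes were -0.34, -0.36 and -0.40 (edgeR adjusted p = 0.486, 0.343 and 0.378), or with limma on log2(TPM + 1). The limma changes were -0.41, -0.35 and -0.26 (adjusted p = 0.243, 0.283 and 0.506). With limma on the rescaled TPM the calls of Mcm7 were kept. The call at 1 h also ended without any 1 of 1 h replicates 11, 12 and 13 (-0.59 to -0.65) or without 0 h replicate 7 (-0.73). The call at 8 h ended without 1 h replicate 11 or 12 (-0.71 and -0.69). Exons of Mcm7 overlap those of Ap4m1 and Cops6 on the other strand, whose reads cannot be separated in libraries that do not mark strand.

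Mcm6 was lower at 1 h and 8 h than at 4 h, and at 1 h and 8 h lower than at 0 h. It had a median of 83.8 CPM at 0 h (23.0 to 109), 24.9 at 1 h (0 to 50.8), 49.1 at 4 h (13.4 to 164) and 20.7 at 8 h (14.1 to 33.8). It fell by 1.69 ± 0.42 at 1 h against 0 h (adjusted p = 0.00151), was higher by 1.11 ± 0.30 at 4 h than at 1 h (adjusted p = 0.00134), and fell by 1.50 ± 0.30 at 8 h against 4 h (adjusted p = 4.82e-05). The ranges at 4 h and 1 h overlapped, with 2 batch 1 follicles at 4 h far above the rest. In batch 1 the median was 52.2 CPM at 4 h and 22.8 CPM at 1 h, and in batch 2 it was 47.3 CPM at 4 h and 44.0 CPM at 1 h. The difference of this step between the batches, batch 2 minus batch 1, was -1.14 ± 0.76 and missed the threshold (adjusted p = 0.433). With a term for each of the 3 library sets no change of Mcm6 was called by edgeR. It was then 0.20 at 4 h against 1 h (adjusted p = 0.853) and -0.43 at 8 h against 4 h (adjusted p = 0.722). It was -1.20 at 1 h against 0 h (adjusted p = 0.0727) and -1.42 at 8 h against 0 h (adjusted p = 0.0586), and -1.19 at 1 h against 0 h within batch 2 (adjusted p = 0.234). The 4 h plate of batch 1 cannot be told apart from time within that batch.

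Orc6 had a median of 10.5 CPM at 0 h (3.00 to 15.5), 9.56 at 1 h (4.13 to 16.6), 11.0 at 4 h (7.47 to 19.2) and 9.07 at 8 h (4.09 to 13.1), and its changes against 0 h were -0.11 ± 0.29, 0.00 and -0.42 ± 0.32 at 1, 4 and 8 h, none of them called. Its exons overlap Vps35. Orc1, which binds origins as the largest subunit of its complex, had 894 counts in 0 h replicate 7 and at most 2 counts in any other library, so no statement on its course was made. Cdc6 and Cdt1, the loaders of the helicase, had medians of at most 1.14 and 5.28 CPM at any time and were not tested.

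Gins3 and Gins4 encode subunits of the GINS complex, which turns the loaded helicase on, and had their lowest medians at 4 h. Gins3 had a median of 9.82 CPM at 0 h (8.76 to 16.1), 10.7 at 1 h (4.54 to 16.7), 3.64 at 4 h (0 to 7.48) and 6.95 at 8 h (2.23 to 9.95). Every follicle at 4 h was below every follicle at 0 h, a fall of 1.54 ± 0.32 (adjusted p = 6.47e-05), and the level at 8 h was higher than at 4 h by 0.61 ± 0.23 (adjusted p = 0.0317). Gins4 had a median of 14.2 CPM at 0 h (9.03 to 19.9), 7.51 at 1 h (2.68 to 14.2), 4.11 at 4 h (0 to 8.29) and 8.02 at 8 h (2.97 to 11.4). It likewise fell at 4 h without overlap, by 1.73 ± 0.37 (adjusted p = 9.95e-05), and was 0.74 ± 0.26 higher at 8 h than at 4 h (adjusted p = 0.0210). At 1 h the fall of Gins4 was 0.99 ± 0.38 (adjusted p = 0.0394). That call ended in batch 2 alone (-0.83, edgeR adjusted p = 0.336) and without the "_ds" follicles (-0.90, adjusted p = 0.145). It also ended with the library set term (-0.88, edgeR adjusted p = 0.173) and with limma on log2(TPM + 1) (-0.73, adjusted p = 0.152). The fall of Gins3 at 8 h against 0 h (-0.93 ± 0.36, adjusted p = 0.0321) was not called by edgeR without the "_ds" follicles (-0.70, adjusted p = 0.185), with the library set term (-0.65, adjusted p = 0.259) or without 0 h replicate 7, 1 h replicate 11, 4 h replicate 11 or 4 h replicate 13 (-0.67 to -0.84). limma on log2(TPM + 1) gave -0.09 for this fall of Gins3, and -0.66 on the rescaled TPM (adjusted p = 0.099), which was not called either. With the library set term neither rise from 4 h to 8 h was called (1.12 for Gins3 and 0.97 for Gins4, edgeR adjusted p = 0.174 and 0.364). Gins2, which was too low to be tested, had its lowest median at 1 h, at 1.51 CPM, with 3.74 CPM at 4 h. Gins1, Gins2, Cdc45 and Mcm10 had medians between 0 and 7.85 CPM at the 4 times and were not tested.

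The polymerases moved in opposite directions. Pola1 and Pola2, the catalytic and regulatory subunits of DNA polymerase alpha, rose, whereas Pold1 and Pold2, the catalytic and accessory subunits of polymerase delta, fell. Pola1 had a median of 8.00 CPM at 0 h (6.27 to 13.7), 27.3 at 1 h (2.06 to 42.9), 22.2 at 4 h (15.4 to 38.8) and 19.8 at 8 h (14.5 to 31.5). All follicles at 4 h and at 8 h were above all follicles at 0 h, and the rise was 1.33 ± 0.30 at 1 h, 1.24 ± 0.29 at 4 h and 1.00 ± 0.33 at 8 h (adjusted p = 6.13e-04, 3.04e-04 and 0.0123). In the 3 batch 2 follicles at 1 h, Pola1 stood at 16.2, 21.3 and 42.9 CPM, above the highest 0 h follicle of that batch at 13.7 CPM. Without the "_ds" follicles the change of Pola1 at 8 h was 0.87 and not called by edgeR (adjusted p = 0.0751).

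Pola2 had a median of 27.0 CPM at 0 h (18.7 to 33.9), 41.6 at 1 h (21 to 64.3), 56.1 at 4 h (7.70 to 102) and 76.7 at 8 h (44.5 to 103). It rose by 0.98 ± 0.26 at 4 h and 1.27 ± 0.30 at 8 h against 0 h (adjusted p = 0.00139 and 4.57e-04), with all 8 h follicles above all 0 h follicles. With the library set term the rise of Pola2 at 4 h was 0.66 (edgeR adjusted p = 0.0518). Its 4 h follicles stood at 32.4, 49.1 and 49.2 CPM in batch 2 and a median of 63.4 CPM in batch 1. Against 1 h, the rise at 4 h was 0.48 ± 0.19 (adjusted p = 0.0269), but in batch 2 alone the change was -0.14 (adjusted p = 0.803).

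Pold1 had a median of 20.6 CPM at 0 h (4.82 to 31.5), 5.60 at 1 h (0 to 17.7), 5.19 at 4 h (0 to 8.30) and 8.87 at 8 h (4.26 to 18.5). It fell by 1.86 ± 0.46 at 1 h, 2.40 ± 0.44 at 4 h and 1.75 ± 0.50 at 8 h (adjusted p = 0.00167, 8.00e-06 and 0.00381), with the lowest 0 h follicle inside the later ranges. Without the "_ds" follicles Pold1 was called at 4 h but not at 1 h (-1.40, edgeR adjusted p = 0.0512) or 8 h (-1.22, adjusted p = 0.0836), and limma did not call it at 8 h (-0.80, adjusted p = 0.107). Pold2 had a median of 39.7 CPM at 0 h (8.03 to 59.4), 16.0 at 1 h (6.19 to 26.9), 14.0 at 4 h (9.14 to 18.3) and 18.8 at 8 h (12.5 to 26), and fell by 1.38 ± 0.31, 1.65 ± 0.29 and 1.11 ± 0.34. Within libraries, the Pola2 count exceeded the Pold2 count in 2 of 9 follicles at 0 h, in 13 of 13 at 1 h, 12 of 13 at 4 h and 11 of 11 at 8 h. This comparison does not depend on depth or on scaling of whole libraries. The authors' adjustment of the counts between batches could still shift it, as all 0 h follicles are of batch 2. The median ratio at 0, 1, 4 and 8 h was 0.609, 3.00, 4.46 and 3.68. It stood at 2.67 to 4.50 in the batch 2 follicles at 1 h and at 3.35 to 3.55 in those at 4 h.

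Prim2, the large subunit of the primase that starts each strand, had a median of 3.05 CPM at 0 h (1.86 to 7.50), 9.01 at 1 h (0 to 12.1), 2.09 at 4 h (0 to 5.74) and 3.94 at 8 h (0.695 to 8.02). Against 1 h it fell by 1.50 ± 0.41 at 4 h (adjusted p = 0.00163) and did not pass the test against 0 h at any time. Its step from 1 h to 4 h within batch 2 was -1.33 (edgeR adjusted p = 0.172). Prim1 and Pole, the catalytic subunits of primase and of polymerase epsilon, had medians from 1.50 to 4.54 CPM and were not tested.

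The genes that finish Okazaki fragments, the short pieces of the lagging strand, fell at all 3 times. Fen1, the nuclease that trims the RNA primers, had a median of 62.1 CPM at 0 h (11.8 to 117), 9.13 at 1 h (0 to 23.5), 9.76 at 4 h (0 to 22.3) and 6.40 at 8 h (3.74 to 13.2). It fell by 3.53 ± 0.59 at 1 h, 3.42 ± 0.54 at 4 h and 3.85 ± 0.63 at 8 h (adjusted p = 6.72e-06, 5.75e-07 and 1.92e-06). The lowest 0 h follicle, at 11.8 CPM, lay inside the later ranges. In batch 2 the 3 follicles at 1 h had 0, 0 and 2.68 CPM and those at 4 h had 0, 0.638 and 22.3 CPM, while the batch 1 medians were 12.2 CPM at 1 h and 9.98 CPM at 4 h. Against the 0 h median of 62.1 CPM, follicles of both batches were thus low, but by different amounts. With a term for the 3 library sets the change at 1 h was -6.40 (adjusted p = 1.37e-05), with 2 of the 3 batch 2 follicles at 0. Exons of Fen1 overlap Tmem258 on the other strand.

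Lig1, the ligase that seals the fragments, had a median of 12 CPM at 0 h (6.42 to 25.1), 4.78 at 1 h (0.874 to 9.97), 2.99 at 4 h (0 to 6.97) and 3.40 at 8 h (2.23 to 7.89). It fell by 1.88 ± 0.52, 2.73 ± 0.49 and 2.35 ± 0.57 at 1, 4 and 8 h (adjusted p = 0.00415, 7.18e-06 and 7.23e-04), with ranges that overlapped at each time. At 1 h Lig1 was not called in batch 2 alone (-1.95, edgeR adjusted p = 0.09) or without the "_ds" follicles (-1.36, adjusted p = 0.0844). Pcna, the clamp that tethers the polymerases, had a median of 15.2 CPM at 0 h (5.59 to 33.0), 26.9 at 1 h (10.7 to 50.9), 17.8 at 4 h (2.49 to 68.2) and 14.5 at 8 h (7.26 to 25.6). With all follicles none of its changes against 0 h was called (0.60 ± 0.44, 0.10 ± 0.41 and -0.28 ± 0.49), and against 1 h it fell by 0.89 ± 0.33 at 8 h (adjusted p = 0.0217). A single 4 h follicle of batch 2, replicate 11, held the highest value of 68.2 CPM. Without it Pcna was called lower by edgeR in 3 further comparisons: -1.16 at 4 h and -1.32 at 8 h against 0 h (adjusted p = 0.0215 and 0.0177), and -0.87 at 4 h against 1 h (adjusted p = 0.00425). Reads of the pseudogenes Pcna-ps1 and Pcna-ps2 may be shared with Pcna.

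The clamp loader, replication factor C, did not move as a unit either. Rfc2 had a median of 16.8 CPM at 0 h (13.5 to 29.8), 35.2 at 1 h (16.8 to 59.8), 23.0 at 4 h (11.5 to 32.7) and 31.8 at 8 h (22.3 to 39.4). It rose by 0.82 ± 0.22 at 1 h against 0 h (adjusted p = 0.00381), fell by 0.67 ± 0.16 at 4 h against 1 h (adjusted p = 2.95e-04) and was higher by 0.41 ± 0.16 at 8 h than at 4 h (adjusted p = 0.0348). Its change at 1 h within batch 2 was 0.76 (edgeR adjusted p = 0.0624). With the library set term its later steps were -0.49 and 0.20 (adjusted p = 0.309 and 0.764). Rfc1, the large subunit, fell by 1.59 ± 0.28 at 4 h and 1.13 ± 0.32 at 8 h, Rfc3 fell by 1.73 ± 0.46, 2.24 ± 0.41 and 1.86 ± 0.49 at the 3 times, and Rfc5 fell by 0.77 ± 0.33 at 4 h. Every Rfc1 value at 4 h lay below every value at 0 h. In batch 2 Rfc3 had 0, 0 and 1.33 CPM at 1 h and 3.82, 3.83 and 6.65 CPM at 4 h. Exons of Rfc2 overlap Lat2, and those of Rfc5 overlap Wsb2. Rfc4 had medians of 2.24 to 6.19 CPM and was not tested.

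**Figure D3:**
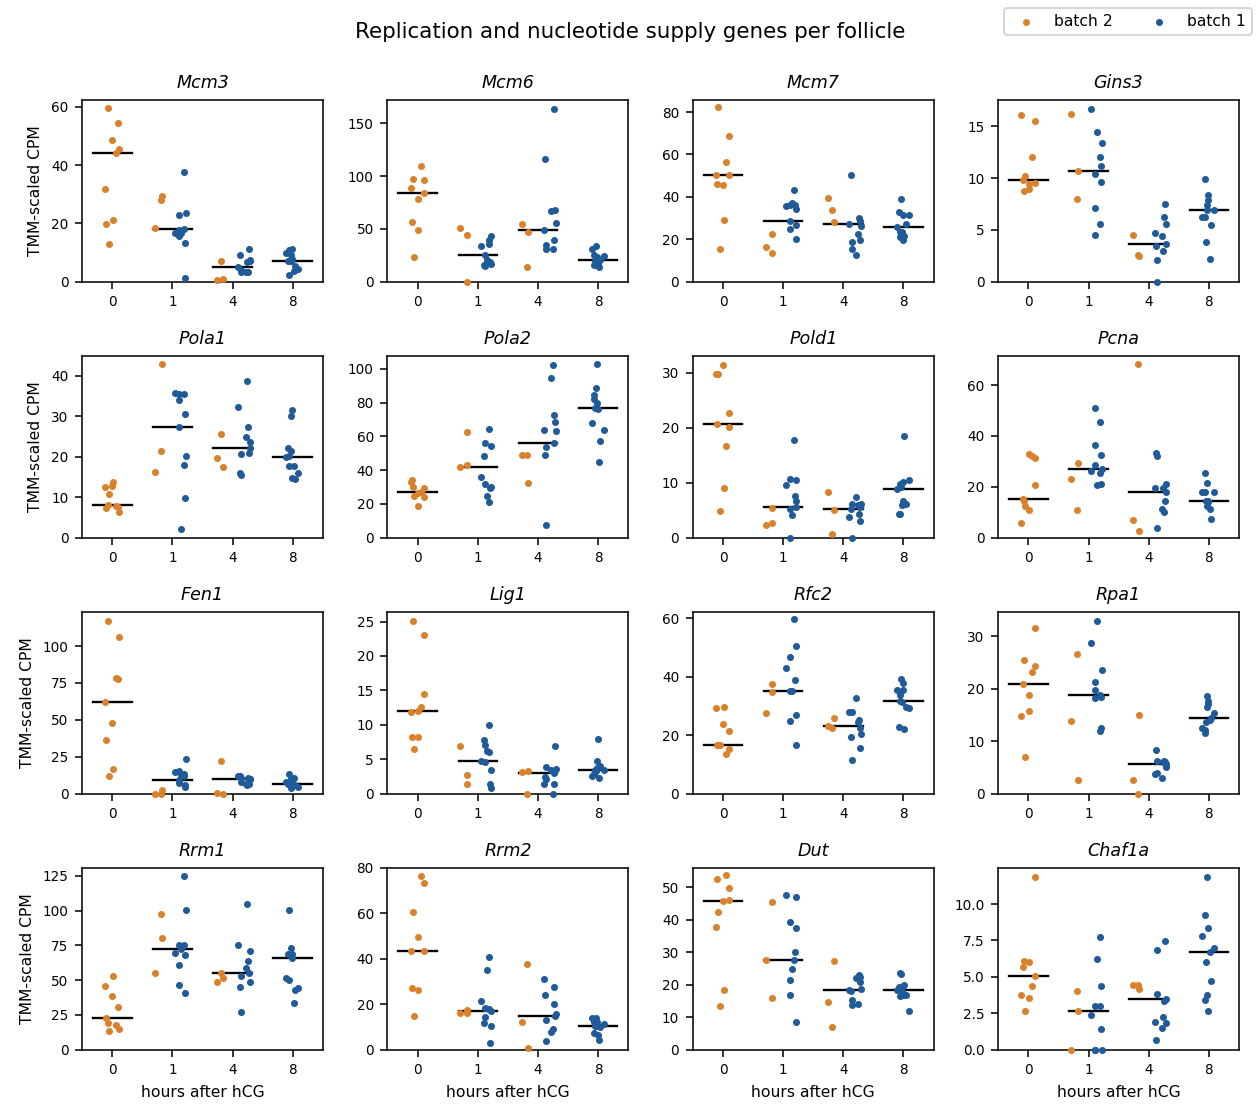
TMM-scaled CPM (y axes, linear from 0) of 16 members in each follicle at 0, 1, 4 and 8 h after hCG (x axes), with points colored by batch and bars at the median of all follicles of a time. Mcm3 and Fen1 are low at 4 h and 8 h, Pola1, Pola2 and Rrm1 are high after 0 h, Rpa1 is lowest at 4 h, and Mcm6 is higher at 4 h than at 1 h and 8 h.

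Replication protein A, the trimer that coats single-stranded DNA, fell in all 3 subunits at 4 h. Rpa1, its large subunit, had a median of 20.9 CPM at 0 h (6.96 to 31.7), 18.8 at 1 h (2.68 to 33.0), 5.58 at 4 h (0 to 15.0) and 14.5 at 8 h (11.6 to 18.6). It did not pass the test at 1 h (-0.24 ± 0.37, adjusted p = 0.634), fell by 2.03 ± 0.37 at 4 h against 0 h (adjusted p = 9.96e-06), and was higher by 1.38 ± 0.27 at 8 h than at 4 h (adjusted p = 5.12e-05). In batch 1 all 8 h follicles had at least 11.6 CPM and all 4 h follicles at most 8.30 CPM. In batch 2 the 4 h follicles spread over 0, 2.55 and 15.0 CPM. The 4 h against 0 h change of Rpa1 within batch 2 was -1.79 (edgeR adjusted p = 0.0734). Its step from 4 h to 8 h became 1.11 with the library set term (adjusted p = 0.254). Rpa3, the smallest subunit, had a median of 15.9 CPM at 0 h (8.07 to 24.1), 10.4 at 1 h (4.00 to 26.9), 4.98 at 4 h (1.49 to 10.0) and 5.44 at 8 h (0.965 to 7.89). It fell by 1.60 ± 0.40 at 4 h and 1.69 ± 0.47 at 8 h (adjusted p = 6.68e-04 and 0.00262), with all 8 h follicles below all 0 h follicles. limma on log2(TPM + 1) gave -0.94 at both times for Rpa3 and called neither (adjusted p = 0.0508 and 0.0966). Rpa2 fell by 1.38 ± 0.38, 1.18 ± 0.35 and 1.23 ± 0.41 at the 3 times.

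In nucleotide supply, the subunits of ribonucleotide reductase, which makes deoxynucleotides from ribonucleotides, parted. Rrm1 encodes the large catalytic subunit and lies on chromosome 7 at 102441695 to 102469771, and Rrm2 encodes the small radical-bearing subunit and lies on chromosome 12 at 24708241 to 24714146 (GRCm38, GENCODE M21, both on the plus strand). Rrm1 had a median of 22.8 CPM at 0 h (13.4 to 53.0), 72.3 at 1 h (40.6 to 125), 55.3 at 4 h (26.9 to 105) and 65.7 at 8 h (33.4 to 100.4). It rose by 1.35 ± 0.28 at 1 h, 1.01 ± 0.28 at 4 h and 1.03 ± 0.32 at 8 h (adjusted p = 1.75e-04, 0.00194 and 0.00711), with ranges that overlapped at each time. The 3 batch 2 follicles had 55.4, 80.4 and 97.3 CPM at 1 h, all above the highest 0 h follicle at 53.0 CPM. The change of Rrm1 at 4 h within batch 2 was 0.95 (edgeR adjusted p = 0.064).

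Rrm2 had a median of 43.6 CPM at 0 h (15.0 to 76.3), 16.8 at 1 h (2.80 to 41), 14.6 at 4 h (0.831 to 37.6) and 10.2 at 8 h (4.45 to 14.1). It fell by 1.40 ± 0.44 at 1 h, 1.46 ± 0.42 at 4 h and 2.24 ± 0.50 at 8 h (adjusted p = 0.0117, 0.00308 and 2.39e-04), and every 8 h follicle was below every 0 h follicle. Within batch 2 the changes of Rrm2 at 1 h and 4 h were -1.43 and -1.35 and not called by edgeR (adjusted p = 0.165 and 0.119). The Rrm1 count exceeded the Rrm2 count of the same library in 2 of 9 follicles at 0 h, in 13 of 13 at 1 h, 13 of 13 at 4 h and 11 of 11 at 8 h. The median ratio at 0, 1, 4 and 8 h was 0.773, 4.17, 4.00 and 5.71. In batch 2 alone the ratio ran over 0.231 to 2.02 at 0 h, 3.43 to 5.62 at 1 h and 1.48 to 62.0 at 4 h, so its shift at 1 h was present among follicles of the same batch.

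**Figure D4:**
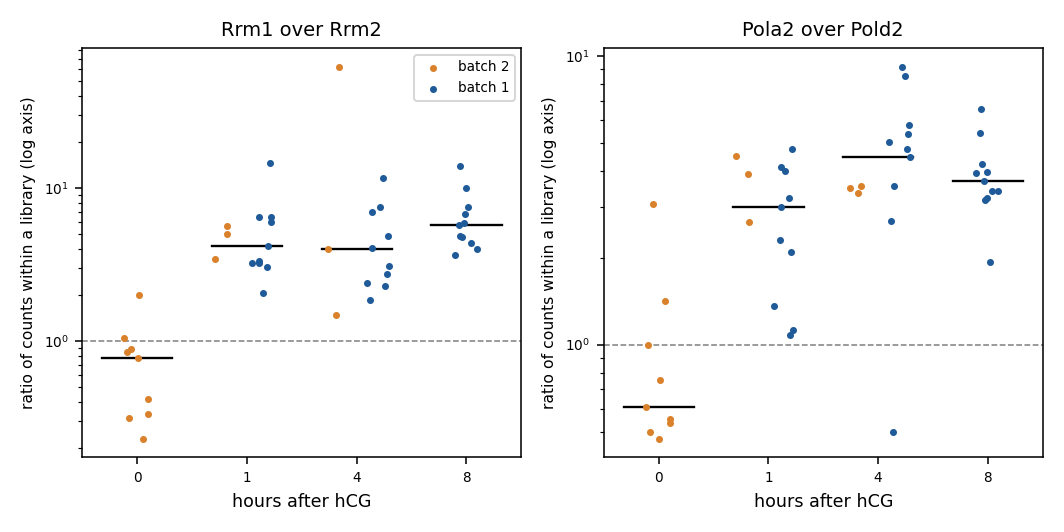
Ratio of counts within each library (y axes, logarithmic) of Rrm1 over Rrm2 and of Pola2 over Pold2 at 0, 1, 4 and 8 h after hCG (x axes), with points colored by batch, bars at the median of all follicles of a time and a dashed line at equal counts. Of 9 follicles at 0 h 2 lie above the line in each panel, and all 37 later follicles do for Rrm1 over Rrm2.

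Dut, the dUTPase that keeps uracil out of DNA, had a median of 45.7 CPM at 0 h (13.4 to 53.7), 27.7 at 1 h (8.40 to 47.8), 18.2 at 4 h (7.01 to 27.4) and 18.3 at 8 h (11.8 to 23.6). It fell by 1.26 ± 0.30 at 4 h and 1.26 ± 0.34 at 8 h (adjusted p = 3.88e-04 and 0.00226), with ranges that overlapped those of 0 h. Dut was not called with limma on log2(TPM + 1), at -0.60 and -0.48 (adjusted p = 0.116 and 0.287). Nor did edgeR call it at 4 h in batch 2 alone (-1.22, adjusted p = 0.0609) or at 8 h without the "_ds" follicles (-0.85, adjusted p = 0.084). Tyms, thymidylate synthase, fell by 0.91 ± 0.31 at 1 h and 0.91 ± 0.30 at 4 h, and was 0.50 ± 0.21 higher at 8 h than at 4 h (adjusted p = 0.0477). A pseudogene, Tyms-ps, may share its reads. Tk1, thymidine kinase, had medians of 3.10 to 4.81 CPM and was not tested.

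Of the genes that act on new chromatin, Uhrf1, which brings the maintenance DNA methyltransferase to the fork, had a median of 13.9 CPM at 0 h (6.96 to 21), 10.4 at 1 h (0 to 25.4), 5.86 at 4 h (0 to 11.4) and 9.40 at 8 h (6.26 to 15.6). It fell by 1.17 ± 0.38 at 4 h (adjusted p = 0.00748), with overlap. Uhrf1 was not called without 4 h replicate 11 (-0.82, edgeR adjusted p = 0.0797) or the "_ds" follicles (-0.85, adjusted p = 0.123), nor in batch 2 alone (-1.33, adjusted p = 0.0784) or with limma (-0.81, adjusted p = 0.0914). Chaf1a, the large subunit of the chromatin assembly factor that deposits histones on new DNA, had a median of 5.03 CPM at 0 h (2.68 to 11.9), 2.68 at 1 h (0 to 7.76), 3.49 at 4 h (0.692 to 7.48) and 6.68 at 8 h (2.63 to 11.9). It was not called against 0 h, but at 8 h it was higher than at 1 h by 1.14 ± 0.40 and than at 4 h by 1.02 ± 0.34 (adjusted p = 0.0150 and 0.0148). With the library set term the step from 4 h was 0.23 (edgeR adjusted p = 0.92). Its exons overlap Ubxn6 on the other strand. Chaf1b had medians of 1.45 to 6.01 CPM and was not tested.

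From 1 h to 4 h, 14 members fell and 2 rose, beside 28.9% and 26% of all genes. Of the 14, Gins4 had been called lower and Rfc2 higher at 1 h than at 0 h, and the other members had not been called at 1 h. The risers were Mcm6 and Pola2, and the falls of Mcm3 (-1.85 ± 0.32), Rpa1 (-1.78 ± 0.27) and Prim2 had the largest fold changes among the members called. Both batches hold both times, and of the 17 members that could be tested in these 26 follicles alone none had a step that differed between batches by edgeR, where 5.09% of all genes did. At an unadjusted p under 0.05 there were 2, Mcm7 and Rfc1, while DESeq2 called 0 and limma on log2 TPM called 1. In batch 2 alone 15 of the 16 members had the sign of the joint fit, and 3 were called (Mcm3, Gins3 and Rfc5). In batch 1, with time on separate plates, 12 of the 15 that could be tested were called with the same sign. The 16 members were picked by a joint fit that holds these same libraries, so neither count is separate support.

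From 4 h to 8 h, 8 members rose and 2 fell, beside 19.8% and 21.6% of all genes. Those that rose were Mcm2, Gins3, Gins4, Pold2, Rfc2, Rpa1, Tyms and Chaf1a, and those that fell were Mcm6 and Rrm2. All these follicles belong to batch 1 except 3 at 4 h, and the 4 h and 8 h follicles of batch 1 lay on different plates. With a term for each library set, which leaves 4 h to the 3 follicles of batch 2, none of the 8 was called by edgeR (6 of the 30 members had an unadjusted p under 0.05) and Mcm2 turned to -0.06 (adjusted p = 0.96). From 1 h to 8 h, on the same plate of batch 1, 8 of the 30 members fell and 2 rose, beside 25.9% and 23.2% of all genes, so the falls were near the share of all genes. Within batch 1 alone, whose libraries are also in the joint fit, 8 fell and 2 rose, of 25 tested, but not all were the same members. Of the 10 joint calls, 9 could be tested there and 8 were called with the same sign. Mcm2 was called there but not jointly (-0.46, edgeR adjusted p = 0.0389). The counts were 3 lower and 6 higher with limma on log2(TPM + 1), and 3 lower and 4 higher with edgeR without the filter on low counts. The shares of all genes in these other settings are not given, so the counts show only how the calls of members change. Those that fell in the joint fit were Mcm3, Gins3, Pcna, Rfc1, Rfc5, Rpa3, Rrm2 and Dut, and Pola2 and Chaf1a rose.

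The counts in this paragraph stand beside shares of all genes of 32.2% lower and 21.9% higher at 4 h against 0 h, and 27.6% and 17.5% at 8 h. Of 33 other replication genes outside the list, 22 could be tested, and 4 fell and 4 rose at 4 h against 0 h. Both counts were below the shares of all genes. The changes were -3.39 for Tipin, a fork protection factor, and 1.10 for the topoisomerase gene Top1. At 8 h 5 fell and 4 rose, with Rnaseh2a, a subunit of the enzyme that removes ribonucleotides from DNA, at 1.59. Of 26 tested genes of 29 in other nucleotide synthesis, 7 fell and 7 rose at 4 h and 8 fell and 2 rose at 8 h. At 4 h Tk2, the mitochondrial thymidine kinase, had a change of -3.56 and Prps2, which makes the ribose donor of nucleotide synthesis, of -3.02, whereas Nme1, a nucleoside diphosphate kinase, had a change of 2.20 and Mthfd2, a mitochondrial folate enzyme, of 2.01. Of the E2F transcription factors and pocket proteins, 6 of 13 could be tested, and 2 fell and 2 rose at 4 h (Rbl2 -1.60, Tfdp2 -1.31, E2f4 0.81 and E2f5 1.01).

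Mitosis genes, set beside the replication genes as the later step of the same cycle, had a lower summed median at each later time. Of 15 tested of 16, 3 fell at 1 h, 10 at 4 h and 12 at 8 h against 0 h, beside 22.2%, 32.2% and 27.6% of all genes. The count at 1 h was near the share of all genes. At 8 h against 4 h 5 of the 15 fell, beside 21.6% of all genes. Their sum had medians of 496 CPM at 0 h (239 to 865), 296 CPM at 1 h (29.4 to 715), 200 CPM at 4 h (80.8 to 320) and 156 CPM at 8 h (55.6 to 230). At 8 h against 0 h, Ccnb2, a mitotic cyclin, changed by -3.82 and Mki67, a marker of cycling cells, by -2.73.

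Per transcript length, as TPM, the order of the members depended on the time. At 8 h Pola2 averaged 45.8 ± 9.57, Rfc2 32.6 ± 6.34, Pola1 32.4 ± 10.0 and Rrm1 26.5 ± 7.83 TPM (SD, n = 11). At 0 h Dut averaged 35.1 ± 13.4, Pold2 28.7 ± 12.3, Fen1 28.0 ± 16.6 and Mcm6 25.1 ± 8.09 TPM (SD, n = 9). Each set of 4 had the highest means of the members at its time. The counts and TPM of Pola1 imply a length of 1169 bases, where its longest annotated transcript has 5346, and those of Rfc2 imply 1787 bases against 4995, so the places of both by TPM are uncertain. By the authors' deposited table, which compares each time with 0 h, at a false discovery rate under 0.05, 13 members were lower and 5 higher at 1 h, 27 lower and 3 higher at 4 h, and 20 lower and 4 higher at 8 h, of 42. The share of all genes called there was not taken, so these counts are not set against it.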

How the data were processed

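RNA of single CD-1 mouse follicles was made into Smart-Seq2 and Nextera XT libraries, per the labels' protocols; these kits do not mark strand. The build GRCm38 and the tools HISAT2, Partek and DESeq2 are named, with no role, order or version, per the submitters' processing notes. The deposited counts are whole numbers that the authors adjusted with ComBat-seq, going by the name of the table, with settings not stated, which could shift differences between batches and so between times. The authors also deposited TPM made from the adjusted counts by the table's name, and a table of comparisons with 0 h with p-values and signed fold changes (a score below 0 for a fall), whose false discovery rates, written partly as question marks, are used here only for counts. Its total-count signal, normalized by the authors, was not used. Both the count and the TPM tables hold 10 further columns that fit no described follicle, and these were left out.

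The 42 members and all lists were chosen with earlier results of these data known. All 46 libraries entered 1 fit in edgeR 4.0.16 (R 4.3.3; TMM factors, filterByExpr on time, time and batch terms, quasi-likelihood F test, Benjamini-Hochberg over 8629 genes, biological coefficient of variation 34.0%), an SE being the fold change over the square root of F. The script was tested on simulated counts. limma 3.58.1 on log2(TPM + 1) or log2(TPM + 0.1) and DESeq2 1.42.0 were alternatives, with the other scaling, filters, terms, batches alone and libraries left out. Full values are given for the 2 members of each role with the highest mean TPM among those tested, and for the 3 largest called rises and falls of each comparison; of other lists, up to 2 called rises and falls. Values of other members named were chosen after they were seen. No 2 libraries of a time were alike within counting noise (lowest chi-square per degree of freedom 3.85). Depth ranged from 241442 to 5185044 counts, and the number of follicles limits precision. A planned search for a PCNA-binding peptide was not made, since no protein table was at hand.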

Additional observations from a re-analysis of the deposited data

Results flagged for a closer look

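At 0 h, the only time with 4 to 10 follicles, the level of 6 of the 42 members stood apart in a single follicle, each time as the highest value. The limit used flags about 1 in 20 groups by chance if values are normally distributed. CPM from low counts need not be, so the number flagged cannot be set against that rate. Orc1 had 283 CPM in replicate 7, with 0.535 CPM in the next follicle. Cdc45 had 14.4 CPM in replicate 2, against 7.24 CPM in the next, and Chaf1a had 11.9 CPM in replicate 6, against 6.10 CPM. Replicate 3 held the highest Prim2, at 7.50 CPM against 4.32 CPM, and the highest Rfc1, at 60.0 CPM against 35.8 CPM. Pole had 6.0 CPM in replicate 4 and 3.81 CPM in the next. The cause was not tested.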

How the results depend on the processing

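Counts below are members lower, then higher. The shares of all genes called in each setting are not given beside them. Against 0 h, the reported 11 and 3 at 1 h, 21 and 3 at 4 h and 14 and 3 at 8 h became 1 and 0, 4 and 0, and 1 and 0 with a replicate block. Replicate numbers did not pair follicles (median correlation of same-numbered deviations -0.00454, n = 62), and the block turned Gins4 to 0.81 at 1 h and 0.035 at 4 h. Thinning to the shallowest library left 4 members testable, with 1 and 0, 1 and 1, and 2 and 1 called, and 2 changed over the 4 times in place of 28. With limma the counts were 7 and 6, 13 and 5, and 8 and 5 on log2(TPM + 1). Without its filter, limma gave 7 falls at 1 h, 13 and 5 at 4 h, and 7 and 5 at 8 h, and on log2(TPM + 0.1) they were 13 and 5 at 4 h and 7 and 5 at 8 h. On TPM the median of all genes moved to 0.15 at 4 h and 0.23 at 8 h. With TPM rescaled without the 3332 genes absent from batch 2 after hCG, 19 fell at 1 h. Batch 2 alone gave 5 falls at 1 h and 13 at 4 h, follicles without "_ds" gave 4 falls at 1 h and 8 at 8 h, and the fit without a batch term gave 5 rises at 1 h.

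For 4 h against 1 h, 14 and 2 became 2 and 1 with a term for the library sets, 3 and 0 in batch 2 alone, 0 and 1 thinned, 9 and 1 with unfiltered limma, and 8 falls on log2(TPM + 0.1). Pola2 turned to -0.19 with library sets and -0.14 in batch 2 alone. For 8 h against 1 h, 8 and 2 became 3 and 4 with no filter on counts, 0 and 1 thinned, 3 and 6 with limma (also rescaled), and 2 and 6 with the smaller pseudocount or unfiltered. For 8 h against 4 h, 2 and 8 became 1 and 2 with no filter, 1 and 0 with library sets (Mcm2 -0.063), 1 and 0 thinned, and 4 rises with the block. Falls were 1 under DESeq2, RLE factors, all limma fits, without "_ds" and without 0 h replicate 7. limma found 1 member whose step differed between batches in each of its 4 fits.

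Leaving out single follicles (the 6 of batch 2 at 1 h and 4 h, 0 h replicate 7 and 4 h replicate 10) gave ranges of 9 to 11 and 3 to 3 at 1 h, 18 to 21 and 3 to 3 at 4 h, and 11 to 15 and 3 to 4 at 8 h against 0 h. The ranges were 13 to 15 and 2 to 2 at 4 h and 6 to 8 and 2 to 3 at 8 h against 1 h, and 1 to 2 and 7 to 9 at 8 h against 4 h. Of the members 26 to 29 changed over the 4 times, and 0 to 1 differed between batches, the 1 being called without 4 h replicate 11. That follicle also set Pcna at 4 h against 0 h, which ran from -1.16 to 0.38. The other causes were not tested.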
